A study of Mus musculus with 2 samples.

Results

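Interferon-stimulated genes are genes whose transcripts rise when cells meet type I or type II interferon. The set described here holds 44 named genes of this kind. They were taken by gene symbol from a list drawn up with earlier results of these data known, by a rule that uses no measured value, and all 44 were among the 24346 genes listed in both libraries. Bulk mRNA sequencing had been carried out on dorsal skin wounds of neonatal C57BL/6J mice, with 1 library from WT animals and 1 from PU.1-/- littermates. Pups aged 1 day received full-thickness wounds of 1 cm, and the tissue was taken at 24 h. The methods of the study call the wounds incisional and the series text calls them excisional. Both genotypes were wounded, and unwounded skin was not analysed here. The PU.1-/- mice lack the transcription factor PU.1 in the whole animal, and are described by the study as having no T cells, mast cells, macrophages or neutrophils. The number of pups behind each library is not given in the sources used here. With 1 library per genotype there is no replicate error, so no difference below has a test or a p-value, and each describes these libraries only.

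Type I interferons signal through the receptor IFNAR and the factor ISGF3, which contains STAT2 and IRF9. ISGF3 binds a promoter sequence called ISRE. Interferon-γ, the type II interferon, signals through its own receptor and acts on a promoter sequence called GAS. The induced genes encode antiviral enzymes, sensors of foreign nucleic acid, GTPases that attack intracellular pathogens, and regulators that amplify or end the response. In skin, keratinocytes, fibroblasts, endothelium and leukocytes can all carry this response.

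The interferon-stimulated genes did not move as a block. FPKM (fragments scaled by transcript length and by library depth, so that levels compare per length) was compared as the ratio of PU.1-/- to WT, after values below 0.1 FPKM had been raised to 0.1. By a threshold of 2-fold, 7 members were lower in PU.1-/- wounds, 1 was higher, and 36 differed by less. The 7 were Ifi27l2a, Oas3, Oas2, Oas1g, Ddx60, Trim30a and Oas1a, and the higher one was Ifit3. They made up 15.9% and 2.27% of the members, beside 4.34% lower and 2.32% higher among all genes. The median log2 ratio of the members was −0.14, with quartiles of −0.72 and 0.12, beside a median of 0.00 over all genes. Summed over the members, the level was 465 FPKM in WT against 307 FPKM in PU.1-/- wounds. Most of that gap was Ifi27l2a, since the other 43 members summed to 345 and 301 FPKM.

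**Figure D1:**
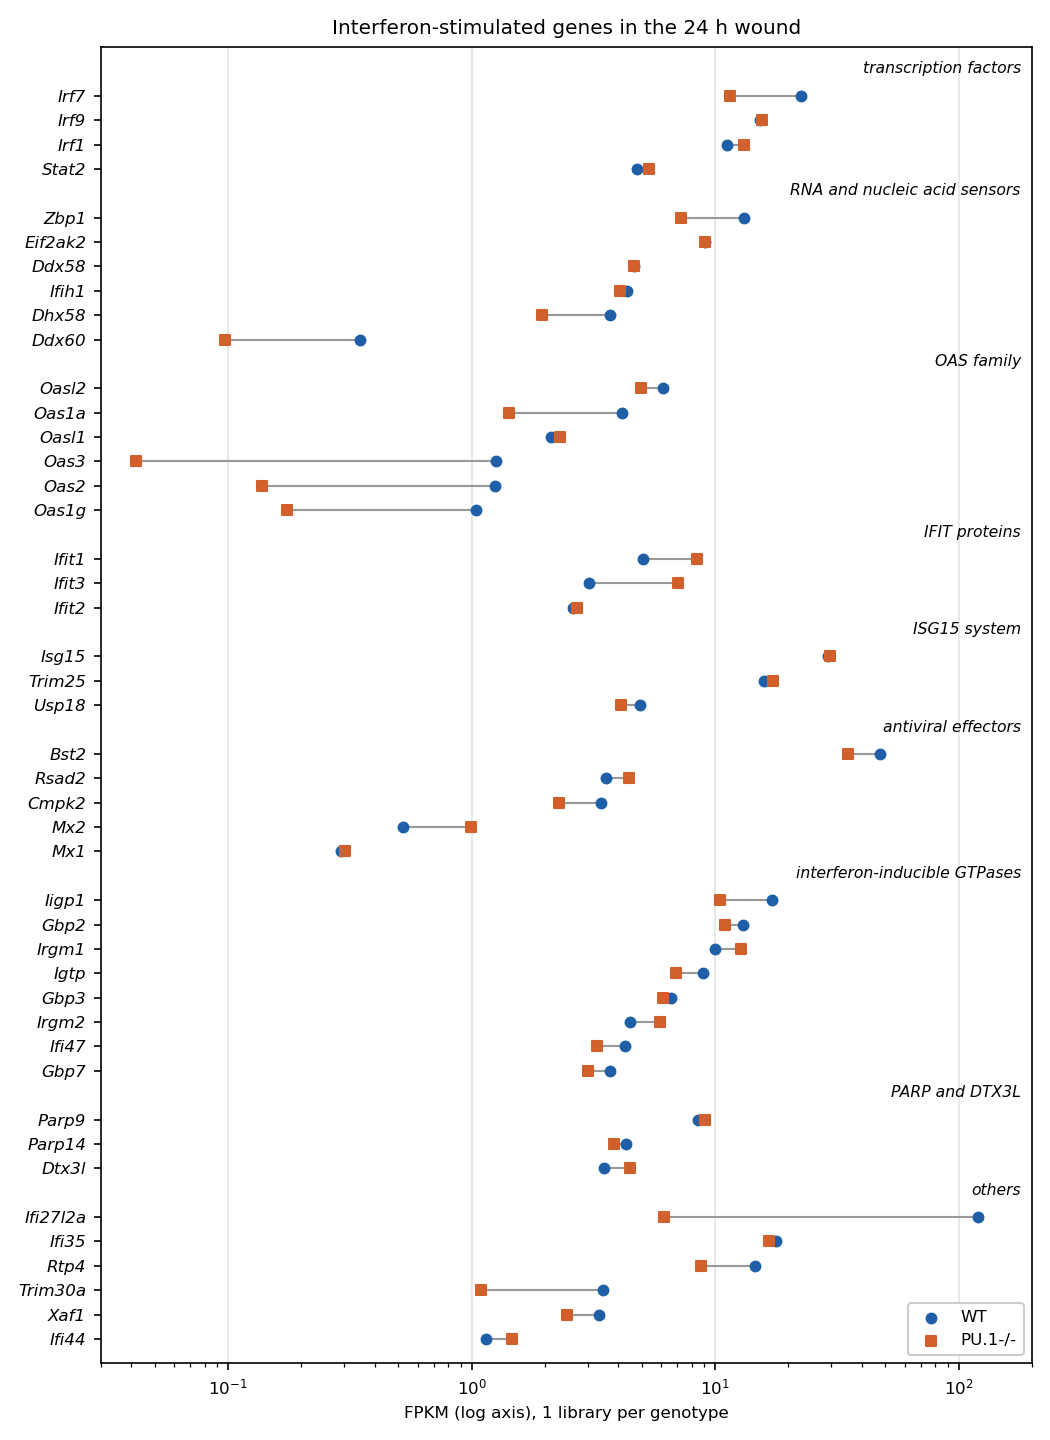
FPKM (log axis) of each of the 44 interferon-stimulated genes in WT (circles) and PU.1-/- wounds (squares), grouped by role, with a line joining the values of a gene. Ifi27l2a, Oas3, Oas2 and Oas1g show the widest gaps with WT on the right, and Ifit3 and Ifit1 lie with PU.1-/- on the right.

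Knockout of the targeted gene was visible in its own transcript. Spi1, which encodes PU.1, stood at 35.4 FPKM in WT tissue and at only 1.45 FPKM in the knockout. Markers of the missing leukocytes moved with the genotype. Of 10 macrophage markers listed, 9 were at least 2-fold lower, their summed level was 532 against 14.4 FPKM, and Adgre1, C1qa, C1qb and Fcgr1 were listed at 0 in PU.1-/- wounds. Of 5 mast cell markers, 4 were lower, with sums of 686 and 7.30 FPKM and Mcpt4 at 0. Of 9 neutrophil markers, 7 were lower, with sums of 12565 and 3676 FPKM and Retnlg, Ngp, Ltf and Csf3r at 0. Most of both sums was S100a8 (6600 and 2129 FPKM) and S100a9 (5311 and 1516 FPKM). T cell markers summed to 4.55 and 1.20 FPKM, with 4 of 8 lower. NK cell markers summed to 2.74 and 0.0340 FPKM, with 2 of 6 lower. The 5 B cell markers summed to 0.583 and 0.317 FPKM, with 1 lower. Of the 5 dendritic and Langerhans cell markers, Cd207 and Flt3 were at 0 in both libraries and H2-Aa alone was lower, at 7.66 and 0 FPKM. Among the plasmacytoid dendritic cell markers Siglech and Klk1 were at 0 in both, none was called, and Cox6a2, a gene also used by muscle, held 56.8 and 80.3 FPKM of sums of 57.3 and 80.9 FPKM. Keratinocyte markers, which check the skin label, summed to 9853 and 11228 FPKM, fibroblast markers to 2605 and 3056 FPKM, and endothelial markers to 170.5 and 189.8 FPKM, with none of the 6 in each list called. Skeletal muscle markers summed to 5784 and 10206 FPKM, with 2 of 6 higher, and red blood cell markers to 528.8 and 769 FPKM, with 1 of 3 higher. The libraries also differed in sex-linked genes, as 4 Y-linked genes summed to 65.8 and 0 FPKM and Xist stood at 0 and 9.48 FPKM. The part of any of these in the values below was not tested. In bulk tissue, fewer cells of a type and less RNA per cell cannot be told apart.

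Read numbers give the precision that depth allows. For 26 members they were recovered as whole-number pairs from the steps between low FPKM values and scaled by transcript length. For 18 they came from FPKM and transcript length. Length was taken less an assumed 200 bases throughout. Depth was put at about 1.38e+07 fragments for WT and 1.58e+07 for PU.1-/-. Behind the members lay 12 to 1477 reads in whichever library had more. Exact 95% intervals of the ratio (Clopper-Pearson) cover counting error only, since reads without molecular identifiers are not independent molecules, and do not cover differences between animals. Among the 41 members with at least 1 FPKM in one or both libraries, 6 were lower and 1 higher by 2-fold, beside 4.45% and 1.71% of all genes at that level. Of these 41, the interval lay below 1 for 18, above 1 for 8, and held 1 for 15. Over all genes with reads at this level, 24.1% had an interval below 1 and 24.3% above 1. Within 1.5-fold were 28 of the 41 (68.3%), beside 86.4% of all genes with at least 1 FPKM.

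**Figure D2:**
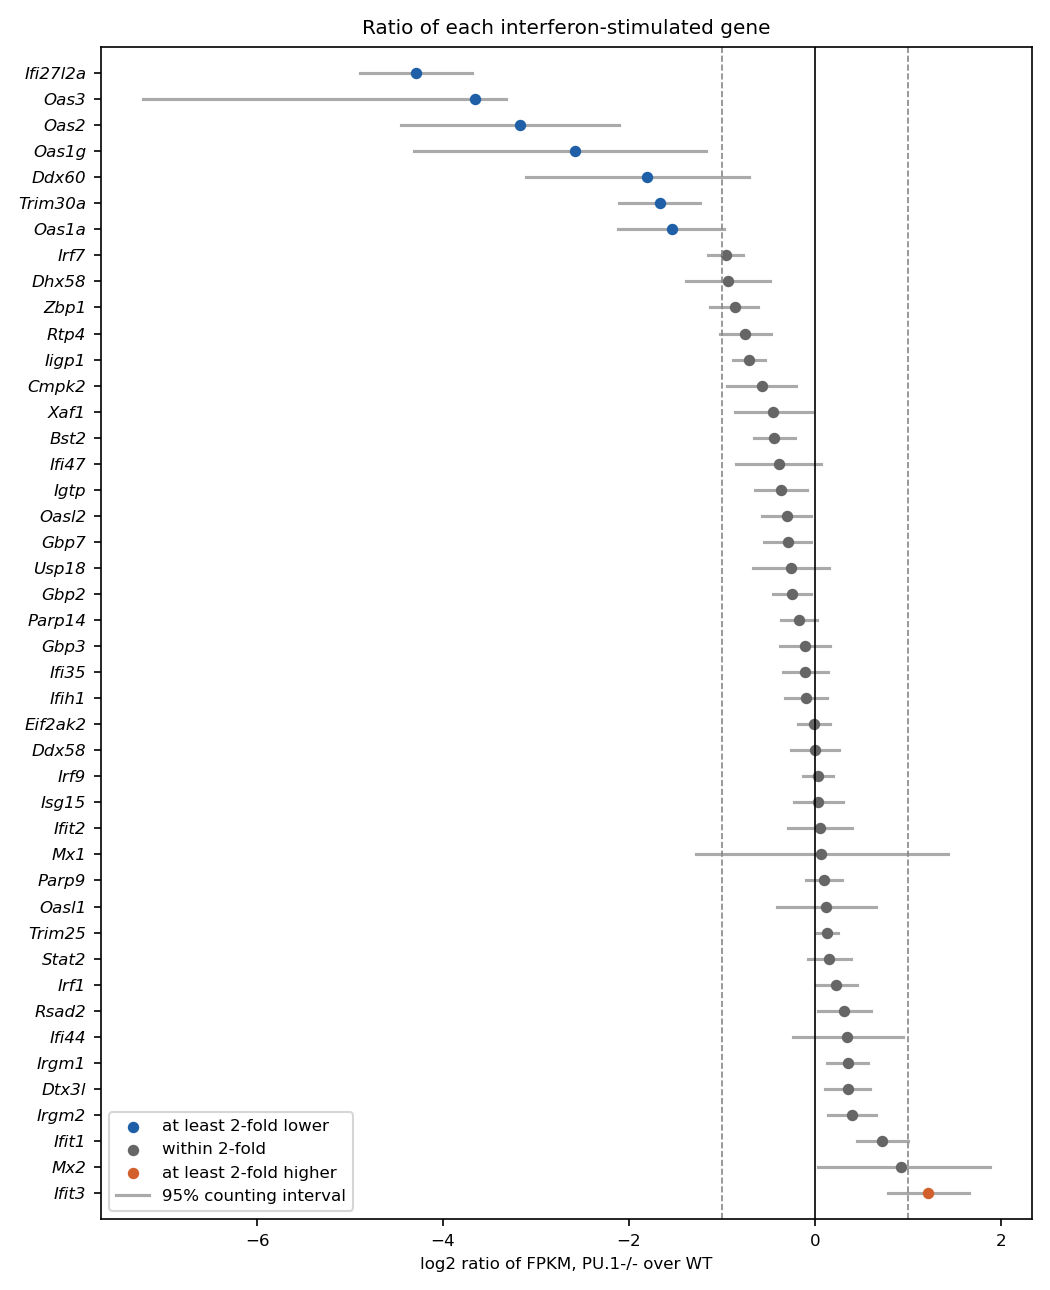
The log2 ratio of FPKM, PU.1-/- over WT, for each of the 44 members in order, with the exact 95% counting interval as a bar and dashed lines at 2-fold. The 7 members that were at least 2-fold lower run from −4.29 to −1.54, and Ifit3 is highest at 1.22. The widest intervals belong to members with few reads, such as Oas3 and Mx1.

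Ifi27l2a, a small interferon-induced gene of the ISG12 family, had the lowest ratio with values below 0.1 FPKM raised to 0.1, and Oas3 had the lowest with values below 0.01 FPKM raised to 0.01 (log2 ratios of −4.92 for Oas3 and −4.29 for Ifi27l2a). Its level was 120.0 FPKM in WT wounds and 6.15 FPKM in PU.1-/- wounds. It was the most abundant member in WT and only the 18th in PU.1-/-. The level in PU.1-/- was 5.13% of that in WT, a log2 ratio of −4.29, and the counting interval of the fold ran from 12.9 to 29.8. About 435 and 26 reads lay behind these values. These read numbers came from its transcript length of 463 bases less an assumed 200, so they and the interval depend on that assumption. The gene lies at chr12:103433873-103443680 of GRCm38 on the minus strand. Without it the median of the remaining members was −0.11.

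The OAS enzymes sense double-stranded RNA and make an oligoadenylate that switches on RNase L, which cuts RNA. Of the 6 OAS family members in the set, 4 were lower in PU.1-/- wounds, beside 4.34% of all genes. These 4 were Oas1a, Oas1g, Oas2 and Oas3. Oas3 stood at 1.26 FPKM in WT against 0.0417 FPKM in PU.1-/-, from 79 and 3 reads. Its log2 ratio with low values raised was −3.66, and the counting interval of the fold on the reads was 9.98 to 149.8. Oas2 stood at 1.24 and 0.137 FPKM, a 9.05-fold difference (interval 4.32 to 21.9). That value rests on 63 and 8 reads. Oas1g was measured at 1.04 FPKM in WT against 0.174 FPKM in PU.1-/-, 5.97-fold (interval 2.26 to 19.9), from 26 and 5 reads. Oas1a was the most abundant of the 4, at 4.12 and 1.42 FPKM, 2.90-fold (interval 1.97 to 4.34). None of the 4 stood above 5 FPKM in either library, and only Oas1a was above 1 FPKM in PU.1-/- wounds. With values below 1 FPKM raised to 1, Oas1a alone of the 4 was called, and with a pseudocount of 1 FPKM, Oas1a and Oas3. Among the members they are neighbours on the minus strand of chromosome 5, within chr5:120730333-120907544. Genes outside the set that may lie between them were not placed. Of other Oas1 genes in the wider list below, Oas1b stood at 0.754 and 0.270 FPKM and was lower. Oas1c stood at 0.347 and 0.242 FPKM, within 2-fold. The gap between Oas2 and Oas3 is 3211 bases, that between Oas3 and Oas1g 98.5 kb, and that between Oas1g and Oas1a 8642 bases. Reads from Oas1a and Oas1g can be exchanged, as 47.6% of the 75-base stretches of the Oas1a transcript also occur in Oas1g and 44.6% of those of Oas1g in Oas1a, so the split between these neighbours is uncertain. Oas2 and Oas3 share no such stretch with another gene.

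Oasl1 and Oasl2 encode OAS-like proteins, and neither passed 2-fold. Oasl2 was measured at 6.10 FPKM in WT against 4.95 FPKM in PU.1-/-, with a log2 ratio of −0.30. Oasl1 stood at 2.11 and 2.29 FPKM, with a ratio interval that held 1 (0.755 to 1.58). They form a separate pair on the same chromosome, 10.9 kb apart. The median log2 ratio was −2.06 over the 6 OAS family members, −2.88 over the 4 OAS genes and −0.09 over this pair. All of the 4 had been called lower and neither of the pair, so the gap between the last 2 medians follows from those calls.

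IFIT proteins bind viral RNA and block its translation, and the 3 in the set all had ratios above 1. Ifit3 stood at 3.02 FPKM in WT against 7.02 FPKM in PU.1-/- wounds, from 63 and 168 reads. It was 2.32-fold higher (interval 1.73 to 3.15), the sole member past 2-fold in this direction, and was not called with a pseudocount of 1 FPKM. Ifit1 stood at 5.07 and 8.39 FPKM, a 1.65-fold difference whose interval, 1.37 to 1.997, lay above 1. For Ifit2 the levels were 2.60 and 2.70 FPKM, and the interval held 1. Among the members these genes are neighbours on chromosome 19, within chr19:34550550-34650009. There Ifit2 and Ifit3 are separated by 6584 bases and Ifit3 and Ifit1 by 51.9 kb. Ifit3 shares 41.1% of its 75-base stretches with Ifit3b, which stood at 0.680 and 1.53 FPKM, so reads could have been divided between them. Ifit1 shares 5.19% with Ifit1bl2.

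Promoters of these genes are shown because Oas3 and Oas1a were lower and Ifit3 was higher in PU.1-/- wounds, while each carries the same kind of motif. The stretches are the 150 bases before an annotated transcript start, 5′ to 3′ on the gene's strand, from RefSeq (GRCm38.p6). That start need not be the outermost one of the gene. The whole Ifit3 stretch lies inside the annotated gene, chr19:34583119-34588982. The stretches of Irf7, Oas3 and Oas1a lie partly inside their genes, so motif positions hold for the start used. Capitals mark the ISRE core GAAANNGAA on either strand, which reads TTCNNTTTC on the other strand, and the GAS letters TTCNNNGAA. Irf7, Ifit1 and Ifit3 were chosen by ratio and level. Oas1a, Oas3 and Isg15 were added after their values had been seen, Isg15 as a gene at nearly equal level in both libraries. The stretches lie at chr5:120777660-120777809 (minus strand) for Oas3, chr5:120907526-120907675 (minus) for Oas1a, chr19:34583379-34583528 (plus) for Ifit3, chr19:34640739-34640888 (plus) for Ifit1, chr4:156200819-156200968 (minus) for Isg15 and chr7:141266425-141266574 (minus) for Irf7.
Oas3: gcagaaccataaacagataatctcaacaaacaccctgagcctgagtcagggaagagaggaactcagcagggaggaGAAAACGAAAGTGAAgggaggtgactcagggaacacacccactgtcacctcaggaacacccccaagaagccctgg
Oas1a: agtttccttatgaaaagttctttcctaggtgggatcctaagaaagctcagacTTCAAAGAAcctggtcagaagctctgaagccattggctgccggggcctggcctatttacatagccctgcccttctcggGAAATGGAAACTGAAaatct
Ifit3: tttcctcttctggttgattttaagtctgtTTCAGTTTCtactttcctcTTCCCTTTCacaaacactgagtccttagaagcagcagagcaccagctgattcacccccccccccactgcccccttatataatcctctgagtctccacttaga
Ifit1: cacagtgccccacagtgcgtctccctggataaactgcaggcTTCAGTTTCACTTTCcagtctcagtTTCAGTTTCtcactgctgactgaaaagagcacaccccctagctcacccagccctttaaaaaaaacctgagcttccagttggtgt
Isg15: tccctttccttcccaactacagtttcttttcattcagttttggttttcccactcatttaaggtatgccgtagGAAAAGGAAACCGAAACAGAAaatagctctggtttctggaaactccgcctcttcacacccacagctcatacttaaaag
Irf7: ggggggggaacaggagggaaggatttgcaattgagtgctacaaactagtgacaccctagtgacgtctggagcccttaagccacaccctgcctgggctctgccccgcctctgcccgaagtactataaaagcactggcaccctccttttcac

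Counting −1 as the base just before the start, the overlapping ISRE cores of Oas3 begin at −75 and −69, and those of Oas1a much closer to the start, at −20 and −14. Oas1a also holds GAS letters at −98. In Ifit3 the cores begin at −155, −121 and −102, the first of them just outside the printed stretch. In Ifit1 they begin at −109, −103 and −84, and in Isg15 at −78, −72 and −66. The Irf7 stretch holds neither motif in these letters.

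Across the set, promoter windows of 300 bases (250 before the start and 50 from it) were in the table for 33 members. The ISRE core was found in 22 of the 33 (66.7%), beside 9.76% of 27025 genes with such a window. GAS letters were found in 9 of the 33 (27.3%), beside 9.55%. No called member with a window lacked the ISRE core, so the windows cannot show whether the motif separates called members by direction. The 22 members with the ISRE core had a median log2 ratio of −0.05 and ran from −3.66 to 1.22, with 5 lower and 1 higher. The 11 without it had a median of −0.10, ran from −0.96 to 0.35, and none passed 2-fold. Over all genes the shares were 4.34% lower and 2.32% higher, and over all 44 members 15.9% and 2.27%. The difference between members with and without the core was not tested. The other 11 members, among them Ifi27l2a and Oas2, were not in the promoter table. A match is a description of letters and not of binding.

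**Figure D3:**
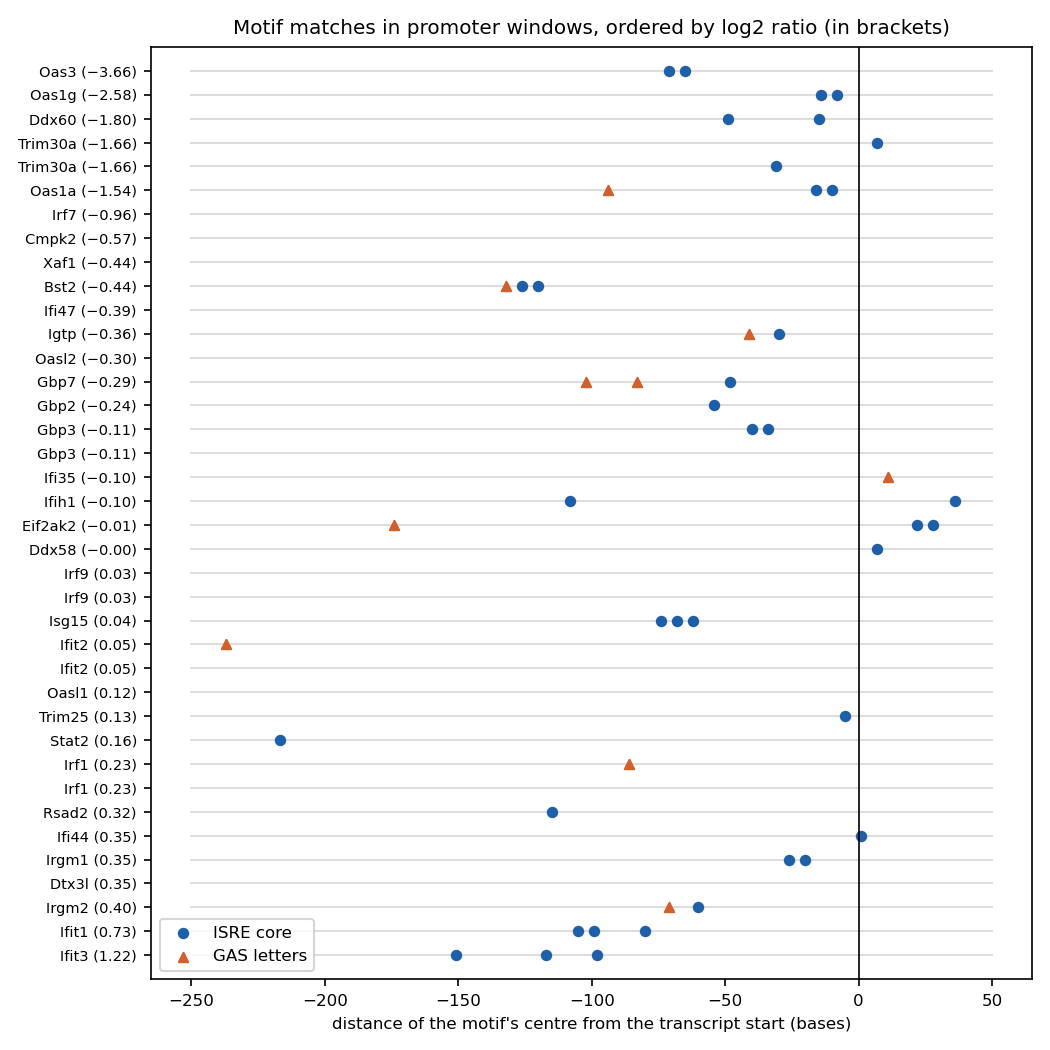
Distance in bases from the transcript start used (vertical line) of each ISRE core (circles) and each match of the GAS letters (triangles) in the promoter windows of 33 members, ordered from the lowest to the highest log2 ratio, with a line per window and 2 lines for a gene with 2 starts. ISRE cores lie at both ends of the order, in Oas3 at the top and Ifit3 at the bottom.

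Among transcription factors, Irf7 differed most. IRF7 is itself induced by interferon and drives the interferon-α genes. Its transcript stood at 22.5 FPKM in WT against 11.6 FPKM in PU.1-/- wounds, just inside 2-fold, with a log2 ratio of −0.96 and a ratio interval of 0.451 to 0.585. Irf9 and Stat2, which encode subunits of ISGF3, showed no such gap. Irf9 was at 15.2 and 15.6 FPKM, and Stat2 at 4.78 and 5.33 FPKM, with intervals that held 1. Irf1, the interferon-γ-induced factor, was at 11.2 and 13.1 FPKM, a ratio of 1.17 (interval 1.01 to 1.37).

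Sensors of nucleic acid, 6 in the set, had a median log2 ratio of −0.48, with 4 ratios below 1 under every scaling tried and those of Ddx58 and Eif2ak2 so near 1 that rescaling moved them to the other side. Ddx60, a helicase linked to RIG-I signalling, was lower, at 0.348 FPKM in WT against 0.0975 FPKM in PU.1-/-, but only 28 and 9 reads lay behind it and it was called neither with values below 1 FPKM raised to 1 nor with a pseudocount of 1 FPKM. Dhx58, which encodes the RIG-I-like receptor LGP2, stood at 3.70 and 1.94 FPKM, a log2 ratio of −0.93. Zbp1, a sensor of Z-form nucleic acid that can trigger necroptosis, stood at 13.2 and 7.25 FPKM, a log2 ratio of −0.86. The intervals of all 3 lay below 1. The main RNA sensors were at nearly equal levels. Ddx58, which encodes RIG-I, was at 4.62 FPKM in both libraries, Ifih1, which encodes MDA5, at 4.34 and 4.05 FPKM, and Eif2ak2, which encodes the kinase PKR, at 9.11 and 9.06 FPKM. The interval of the ratio was 0.837 to 1.20 for Ddx58 and 0.883 to 1.12 for Eif2ak2.

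The ISG15 system attaches a ubiquitin-like protein to other proteins. Isg15 was the third most abundant member in WT at 28.9 FPKM and stood at 29.7 FPKM in PU.1-/- wounds. The interval of its ratio, 0.854 to 1.24, does not reach 2-fold in either direction. Usp18, the protease that removes ISG15 and restrains IFNAR signalling, was at 4.90 and 4.10 FPKM. Trim25, a ubiquitin ligase that acts on RIG-I, was at 15.8 and 17.3 FPKM.

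Antiviral effectors did not pass 2-fold in either direction, beside 4.34% lower and 2.32% higher among all genes. Bst2, which encodes tetherin and holds budding virus at the cell surface, was the second most abundant member in WT at 47.6 FPKM and the most abundant in PU.1-/- at 35.2 FPKM. Its log2 ratio was −0.44, with a ratio interval of 0.633 to 0.863. Rsad2 (viperin) and Cmpk2, a mitochondrial nucleotide kinase, are divergent neighbours 12.7 kb apart on chromosome 12, and their ratios fell on opposite sides of 1. Rsad2 stood at 3.56 and 4.44 FPKM, and Cmpk2 at 3.41 and 2.29 FPKM, with intervals of 1.02 to 1.52 and 0.519 to 0.870. Mx1 and Mx2 are annotated in RefSeq as transcribed pseudogenes in this reference strain. Mx1 was at 0.290 and 0.303 FPKM from 10 and 12 reads, and Mx2 at 0.522 and 0.992 FPKM from 16 and 35 reads. The interval for Mx2, 1.03 to 3.69, is too wide to place it on either side of 2-fold.

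The interferon-inducible GTPases, which act on vacuoles that hold pathogens, all stayed within 2-fold, with a median log2 ratio of −0.27. Most genes did so, as 4.34% of all genes were lower and 2.32% higher. Iigp1 had the lowest ratio, at 17.0 FPKM in WT against 10.4 FPKM in PU.1-/- wounds, a log2 ratio of −0.71 (ratio interval 0.543 to 0.688). Gbp2, Gbp3 and Gbp7, neighbours among the members on chromosome 3, stood at 13.03, 6.61 and 3.68 FPKM in WT. In PU.1-/- they stood at 11.01, 6.13 and 3.01 FPKM. Their log2 ratios lay close together, between −0.29 and −0.11. The IRG genes did not share a direction. Igtp stood at 8.90 and 6.92 FPKM and Ifi47 at 4.28 and 3.27 FPKM. Irgm1 stood at 9.97 and 12.7 FPKM and Irgm2 at 4.49 and 5.94 FPKM, both with intervals above 1. Igtp and Irgm2 are 7384 bases apart, and 8.37% of the 75-base stretches of Igtp also occur in Irgm2. Of Gbp7, 11.4% occur in other genes.

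Parp9 and Dtx3l encode partners in a ubiquitin ligase complex, and Parp14 encodes a related ADP-ribosyltransferase. Parp9 was at 8.50 FPKM in WT against 9.12 FPKM in PU.1-/- wounds, Dtx3l at 3.50 and 4.47 FPKM, and Parp14 at 4.30 and 3.83 FPKM. Their log2 ratios were 0.10, 0.35 and −0.17. Parp9 and Dtx3l overlap by 558 bases on opposite strands of chromosome 16. The kit marks strand, but whether counting used it is not given in the sources used here.

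Of the remaining members, Trim30a, which restrains NF-κB signalling, was lower in PU.1-/- wounds. It stood at 3.46 and 1.09 FPKM, 3.17-fold (interval 2.36 to 4.31). Its paralog Trim30d, with which it shares 5.44% of its 75-base stretches, stood at 1.63 and 0.469 FPKM. Rtp4, an antiviral receptor-transporter protein, stood at 14.6 and 8.71 FPKM, and Xaf1, a pro-apoptotic partner of XIAP, at 3.34 and 2.45 FPKM, with intervals below 1. Ifi35 was at 17.8 and 16.6 FPKM and Ifi44 at 1.148 and 1.46 FPKM, with intervals that held 1.

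The members were also set out by the interferon that textbooks name as their main inducer. The 9 genes ascribed mainly to interferon-γ (Irf1, Gbp2, Gbp3, Gbp7, Igtp, Irgm1, Irgm2, Iigp1 and Ifi47) had a median log2 ratio of −0.24 and a range of −0.71 to 0.40, and none passed 2-fold. The other 35 had a median of −0.10, and all members called in either direction were among them, 7 lower and 1 higher. Among all genes 4.34% were lower and 2.32% higher, and among all 44 members 15.9% and 2.27%. The difference between the 9 and the other 35 was not tested.

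Other genes of the pathway were set beside the members by their place in it. Of 21 interferon genes listed, 17 were at 0 in both libraries, among them Ifng, and none was called. Interferon-κ, the keratinocyte interferon encoded by Ifnk, had the highest level, at 2.02 and 2.17 FPKM from 17 and 21 reads. Ifnb1 was at 0 and 0.113 FPKM, which is 1 read. None of the 6 receptor chains was called, with a median log2 ratio of −0.07, and Ifnar1 stood at 13.8 and 12.4 FPKM. Over all genes 4.34% were lower and 2.32% higher.

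Of the 13 genes that induce interferon, 4 were lower, beside 4.34% of all genes. Tlr7, the endosomal sensor of single-stranded RNA, was at 5.55 and 0.0350 FPKM. Tlr9, which senses DNA, was at 0.706 and 0.0192 FPKM. Irf5 and Irf8 encode transcription factors of myeloid cells, among others. Irf5 stood at 12.0 and 3.42 FPKM, and Irf8 at 2.92 and 0.523 FPKM. The remaining 9, which include Irf3, Mavs and Tlr3, were within 2-fold. Of these Ikbke came nearest to the threshold, at 4.98 and 2.58 FPKM, 1.93-fold lower (ratio interval 0.410 to 0.650). Socs1, an inhibitor of JAK kinases, was the sole gene lower of 4 feedback genes, at 9.96 and 4.61 FPKM, while Socs3 was at 114 and 113 FPKM.

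A wider list of 76 other interferon-induced genes, of which 72 were listed, held 18 lower and 3 higher genes, beside 4.34% lower and 2.32% higher among all genes, and had a median log2 ratio of −0.20. The lowest ratios among those that reached 5 FPKM belonged to Slfn1 (17.9 and 0 FPKM), Sp100 (5.07 and 0.741 FPKM), Slfn2 (68.2 and 11.8 FPKM), Psmb8, an immunoproteasome subunit (19.0 and 6.83 FPKM), and Ifi30 (66.7 and 33.3 FPKM). The highest belonged to Cxcl10, a chemokine that attracts T cells, at 5.20 FPKM in WT against 25.1 FPKM in PU.1-/- wounds, a 4.83-fold difference. Next came Ifi203 (8.11 and 13.5 FPKM), Ifitm1 (218 and 353 FPKM), Mndal (6.07 and 7.10 FPKM) and Ifitm2 (944 and 1023 FPKM), all within 2-fold.

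**Figure D4:**
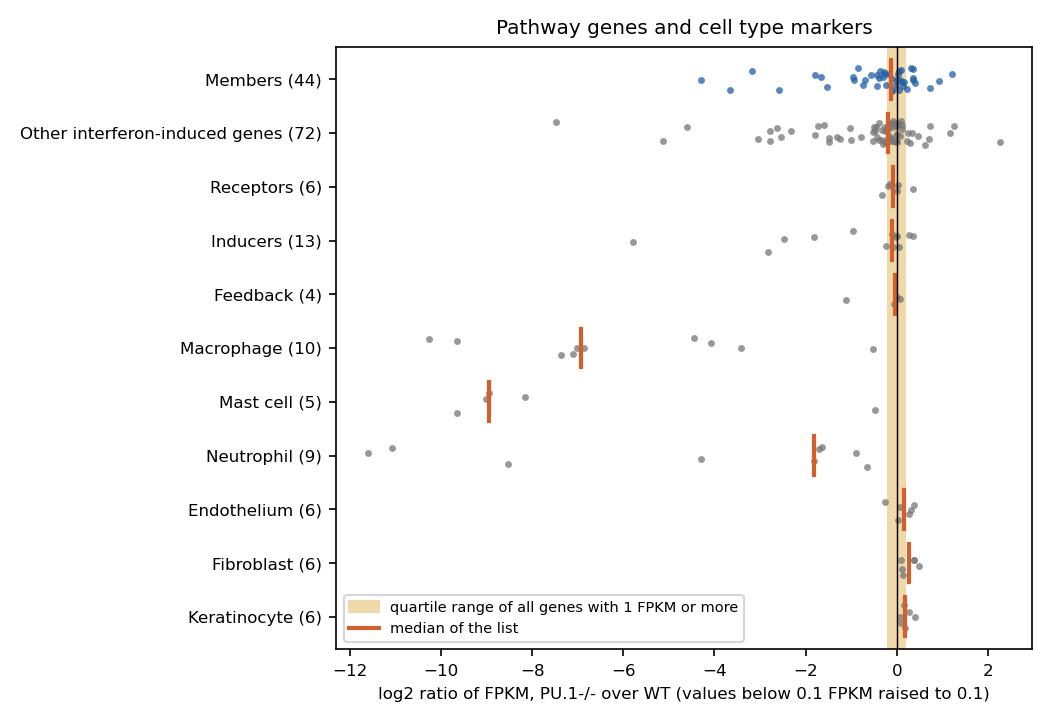
The log2 ratio of FPKM, PU.1-/- over WT, of each gene (points, spread vertically for view) in the members, in 4 pathway lists and in 6 lists of cell type markers, with the number of genes in brackets, the median as a bar, and the range between the quartiles of all genes with at least 1 FPKM shaded. The members have a median of −0.14 with a tail of lower genes, and the macrophage markers a median of −6.93.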

How the data were processed

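Total RNA of wounded skin was made into stranded mRNA libraries and sequenced as single-end reads of 75 bases. Per the study's methods the authors used CASAVA 1.8.2 and Cuffnorm 2.2.1 with mm10, and deposited FPKM values. The submitters' processing notes name TopHat2 2.1.1, Bowtie2 2.2.8, SAMtools 0.1.18 and Cuffdiff 2.2.1, without roles. The annotation is not given in the sources used here.

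All values were computed from these FPKM (Python 3.11.15, pandas 2.3.3, SciPy 1.17.1). Values below 0.1 were raised to 0.1 and genes were called at a ratio of 2. No test was possible with 1 library per genotype. The FPKM of 1 read was 1.14862 times larger in WT, as read from 457 of 4542 low genes. Reads came from whole-number pairs for 26 members (relative tolerance 6e-06) and from transcript length (GENCODE M21) for 18. Depth came from the same steps and from transcript length, less an assumed 200 bases in each use. The read recovery was tested on simulated data. Members, role lists and marker lists were chosen with earlier results of these data known. Named genes were all members, and of the wider list the 5 highest and 5 lowest ratios reaching 5 FPKM. Of 38 promoter windows, 33 matched a transcript of their gene just past the start. The list of kinase and STAT genes is not reported here. Alternatives changed the low-value rule, the filter, the scaling, the threshold and the motif.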

Additional observations from a re-analysis of the deposited data

How the results depend on the processing

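The counts rest on the low-value rule and the threshold. Raising values below 1 FPKM to 1 left 3 members lower, adding a pseudocount of 1 FPKM left 4 lower and 0 higher, and keeping genes with at least 5 FPKM left 22 members with 1 lower. In each of these Oas1g, Oas2 and Ddx60 were no longer called. A threshold of 1.5-fold gave 12 lower and 3 higher members, and one of 3-fold gave 0 higher. Over all genes, where 1057 were lower and 565 higher, the counts became 463 and 164, 461 and 89, 306 and 98, 1867 and 1410, and 681 and 150 in the same order. Raising values below 0.01 FPKM to 0.01 gave 1778 and 1220 over all genes and left the member counts at 7 and 1, but moved the log2 ratio of Oas3 from −3.66 to −4.92, below that of Ifi27l2a, and keeping genes with at least 1 FPKM gave 589 and 226. Of the member ratios, 5 moved under the pseudocount and 5 under the floor of 1 FPKM. On rescaling to the same FPKM sum the log2 ratio of Ddx58 went from −0.00 to 0.05 and that of Eif2ak2 from −0.01 to 0.04, and no other member changed sign under any setting. Median log2 ratios of the members ran from −0.17 to −0.06 over all settings. Rescaling the libraries shifted log2 ratios by 0.05 at most and left 7 lower and 1 higher. The share of member promoters with the ISRE core was 60.6% with a further A required (3.99% of all genes) and 57.6% before the start only (8.18%). No paired analysis was possible because each genotype has 1 library, and for the same reason no library could be left out. Members of few reads, such as Oas3, Oas2, Oas1g, Ddx60, Mx1 and Mx2, are limited by depth.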
